A study of Homo sapiens with 52 samples.

Results

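The 10 genes described here are the D-type and E-type cyclins CCND1, CCND2, CCND3, CCNE1 and CCNE2 and the inhibitors of cyclin-dependent kinases CDKN1A, CDKN1B, CDKN1C, CDKN2A and CDKN2B. They were picked by gene name out of 78894 genes listed in the deposited values, and all 10 were found. Bulk RNA was sequenced from 3 established lines of breast cancer that the labels call claudin-low, a subtype with little claudin and E-cadherin. There were 52 samples: 18 were MDA-MB-231, 17 were SUM159PT and another 17 were HS578T. Within each of them siNT, siNRP1#3 and siNRP1#5 are cells given 20 nM of a non-targeting siRNA or of an siRNA against NRP1 (the co-receptor Neuropilin-1) by reverse transfection, with RNA taken after 72 hrs. The groups shNT, shNRP1#3 and shNRP1#5 are cells that carried a non-targeting or an NRP1-targeting shRNA from a lentivirus, were selected with puromycin, and gave RNA 48 hrs after seeding. The shRNA replicates were successive passages of such cultures. Of the 18 groups, 16 had 3 samples, and SUM159PT siNRP1#5 and HS578T shNRP1#3 had 2. Sequence 5 was the same in the siRNA and the shRNA, and sequence 3 differed between them. Sequence 3 was aimed at the transmembrane form of NRP1 and sequence 5 at both the transmembrane and the soluble forms. Delivery, puromycin and the hour of harvest all separate the siRNA from the shRNA arm, and their parts cannot be told apart here.

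These genes sit at the entry to the cell cycle. Cyclin D proteins bind CDK4 and CDK6, cyclin E proteins bind CDK2, and both complexes phosphorylate the retinoblastoma protein so that E2F factors can switch on the genes of DNA replication. The CIP/KIP inhibitors (CDKN1A encoding p21, CDKN1B encoding p27, CDKN1C encoding p57) bind cyclin-CDK complexes, mainly those of CDK2. The INK4 inhibitors (CDKN2A encoding p16, CDKN2B encoding p15) bind CDK4 and CDK6 in place of cyclin D, and CDKN2A also encodes ARF, an unrelated protein that restrains MDM2, from another first exon. RNA levels alone are described here, although much of the control of cyclin E and p27 is known to act on the proteins.

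Total expected counts ranged from 25310443 to 72003442 per sample (median 44804505), so that 3 counts, taken as the floor of detection, were worth 0.037 to 0.142 CPM (counts scaled to a common library size). CPM values below were scaled by TMM factors over all samples and serve to compare samples within a gene, and TPM values, which also allow for transcript length, serve to compare genes. NRP1 stood at 3.39% to 61.6% of its NT level over the 12 knockdowns and passed the edgeR quasi-likelihood test in 11 of them, with an adjusted p of 0.069 in HS578T shNRP1#3. By their medians the claudin-low label held for CLDN3, CLDN4 and CLDN7 in SUM159PT and HS578T (0 to 1.02 TPM) but not in MDA-MB-231, where the medians were 6.86, 149 and 35.4 TPM. The highest samples had 27.9 TPM of CLDN4 in SUM159PT, and 25.6 TPM of CLDN4 and 7.43 TPM of CLDN7 in HS578T. CDH1 was low (medians 0.05 to 0.405 TPM) and VIM high (medians 2500 to 4350 TPM) in all 3 lines. A group of libraries held RNA of marker genes that their own cell line lacks. The 3 HS578T siNRP1#5 libraries held MDA-MB-231 markers at 13.3% to 24.8% and SUM159PT markers at 1.65% to 8.72% of the level in those lines. The 3 HS578T siNRP1#3 libraries held MDA-MB-231 markers at 2.57% to 7.42%, HS578T siNT replicate 3 held them at 2.19%, and MDA-MB-231 shNRP1#3 replicate 3 held SUM159PT markers at 2.48% and HS578T markers at 2.05%. The HS578T siRNA calls of the 10 genes were therefore also made after these shares of the other cell lines' NT profiles were subtracted. The source of these shares was not tested. The subtraction took the RNA of the other lines to be at NT levels. MDA-MB-231 siNRP1#5 samples had means of 38.9 CPM for CDKN1C and 277 CPM for CCND3, against 6.99 and 137 CPM in siNT. Values after subtraction depend on that choice, and knockdown profiles were not tried.

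In the NT controls the same 3 members led in every cell line, and the INK4 genes and CCND2 were the least abundant apart from CDKN2B in HS578T. CCND1, the cyclin D of most epithelial cells, was the most abundant, at 266 ± 44.9 TPM in MDA-MB-231, 149 ± 62.9 in SUM159PT and 65.8 ± 13.9 in HS578T (mean ± SD, n = 6 for each line, 3 siNT and 3 shNT samples). CCND3 ranked next, at 144 ± 26.2 TPM in MDA-MB-231, 139 ± 7.54 in SUM159PT and 39.0 ± 26.0 in HS578T. The third was CDKN1A, at 114.3 ± 17.7 TPM in MDA-MB-231, 85.3 ± 44.2 in SUM159PT and 32.1 ± 4.84 in HS578T. CDKN1B (9.86 to 19.0 TPM as line means) and CCNE1 (8.49 to 11.8 TPM) formed a middle group with narrow differences between lines. CCNE2 and CDKN1C were lower, with line means of 2.79 to 9.47 TPM for CCNE2 and 1.32 to 9.86 TPM for CDKN1C, each highest in MDA-MB-231.

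**Figure D1:**
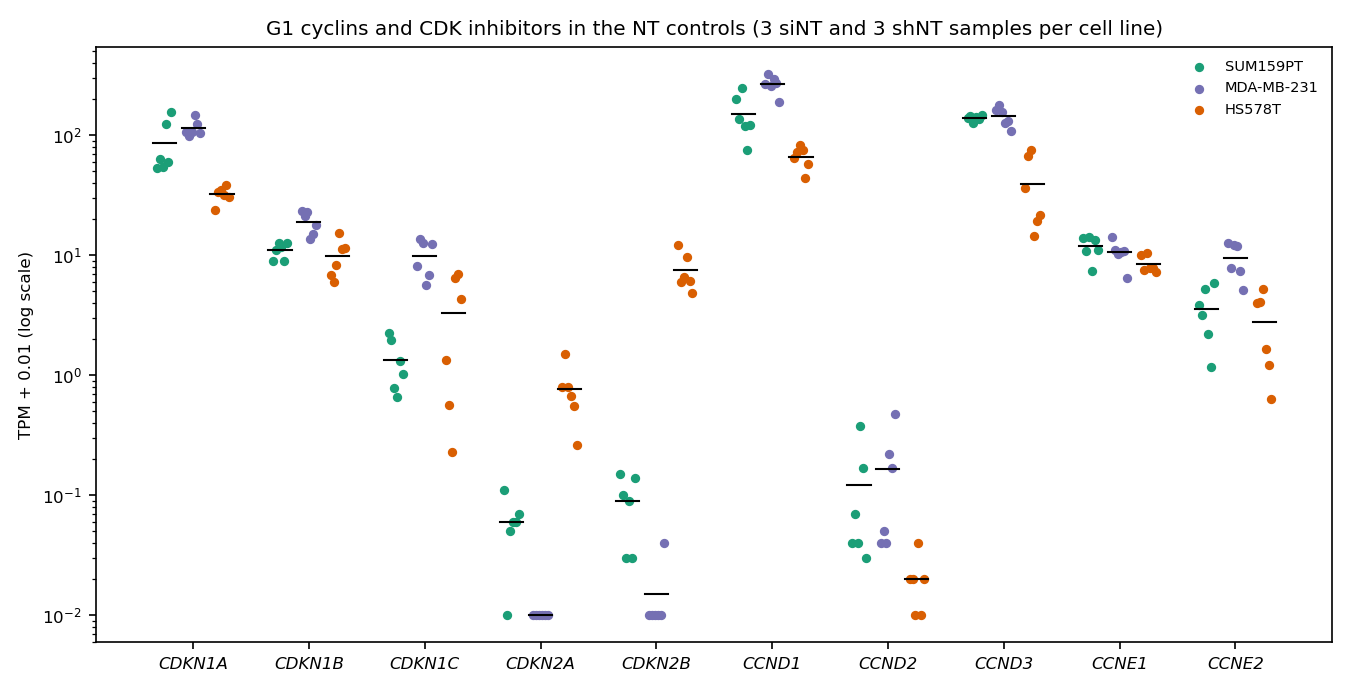
TPM + 0.01 on a log scale for each of the 10 genes in the 6 NT samples of each cell line (points, coloured by line) with their mean (black line). CCND1, CCND3 and CDKN1A lie highest in all 3 lines, and CDKN2A and CDKN2B are clear of 0 in HS578T only, with CDKN2B at 4.81 to 12.2 TPM there.

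The cell lines were compared in their NT controls in a single edgeR fit of all samples. SUM159PT differed from MDA-MB-231 in 7 of the 10 members, against 59.4% of all genes tested, HS578T from MDA-MB-231 in 9 of 10 against 70.2%, and HS578T from SUM159PT in 7 of 10 against 63.5%. The members called between SUM159PT and MDA-MB-231 include CDKN2A and CDKN2B, with 7 against 0 and 41 against 3 counts pooled over 6 NT libraries per line. Both genes were too low to be tested within either of these 2 lines, so these calls rest on counts near the floor. Within a single line they passed the count filter in HS578T alone. The counts for both HS578T pairs include them as higher in HS578T, the line through which they were kept. On the CPM scale CCND1 was lower in HS578T than in MDA-MB-231 by 1.71 ± 0.21 log2 (SE, adjusted p = 1.28e-09) and lower in SUM159PT than in MDA-MB-231 by 0.66 ± 0.20 (adjusted p = 0.00471), so that all 3 pairs of lines differed for this gene. CCND3 was lower in HS578T than in either of the others, with log2 differences of -1.28 ± 0.17 and -1.60 ± 0.17 (edgeR adjusted p = 6.61e-09 and 5.59e-11). Its means in siNT and shNT were 35.8 and 109 CPM in HS578T, 137 and 168 in MDA-MB-231, and 202 and 177.5 in SUM159PT. The gap was thus wider in siNT than in shNT. CDKN1A was lower in HS578T than in MDA-MB-231 by 1.05 ± 0.21 log2 (edgeR adjusted p = 2.66e-05). CDKN1C differed in all 3 pairs and was lower in SUM159PT than in MDA-MB-231 by 2.57 ± 0.38 log2 (edgeR adjusted p = 2.69e-07). Its difference between HS578T and SUM159PT (1.06 ± 0.38, adjusted p = 0.0152) was lost without HS578T shNT replicate 1 (0.63, adjusted p = 0.189). It depended on the arm, with 8.18 against 1.10 CPM in siNT and 0.900 against 1.57 CPM in shNT (means of 3 samples, HS578T first). MDA-MB-231 had means of 6.99 CPM in siNT and 8.69 CPM in shNT, so that HS578T was below it in shNT alone. The pairs that did not pass were SUM159PT and MDA-MB-231 for CDKN1A, CCND2 and CCND3, HS578T and SUM159PT for CDKN1B, CCNE1 and CCNE2, and HS578T and MDA-MB-231 for CDKN1B. The differences in CCNE1 between MDA-MB-231 and the other two lines (0.54 ± 0.18 for SUM159PT and 0.49 ± 0.18 for HS578T, edgeR adjusted p = 0.00745 and 0.0135) rested on single libraries, with an adjusted p of 0.0707 without SUM159PT siNT replicate 2 and of 0.054 without MDA-MB-231 siNT replicate 3. The order of the lines differed between TPM and CPM for CDKN1B, CCND3, CCNE1 and CCNE2. For CCNE1 the mean of HS578T was above that of MDA-MB-231 in CPM (14.7 against 10.5) and below it in TPM (8.49 against 10.6).

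The INK4 genes CDKN2A and CDKN2B were detected as more than traces in HS578T alone. CDKN2B lies on chromosome 9 (GRCh38, chr9:22002903-22009305, minus strand) next to CDKN2A (chr9:21967752-21995301, minus strand). In the HS578T NT controls CDKN2B had 482, 546 and 365 counts in siNT and 1547, 329 and 486 in shNT. In SUM159PT it had 7, 4 and 7 counts in siNT and 12, 8 and 3 in shNT, and in MDA-MB-231 it had 0 counts in 5 NT libraries and 3 in siNT replicate 3. No HS578T library overlapped those of the other lines. Pooled over the 6 NT libraries and corrected for library size, the CDKN2B level in HS578T was 132 times that in SUM159PT (95% exact interval for counting error 96.9 to 184) and 2120 times that in MDA-MB-231 (726 to 10300, set against 3 counts). The largest MDA-MB-231 value, 21 counts, was in shNRP1#3 replicate 3, the library that held 2.05% of HS578T markers, and the part of that RNA in it was not tested.

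CDKN2A was low even in HS578T. The NT libraries there had 11, 14 and 6 counts in siNT and 28, 28 and 19 in shNT, or 0.752 ± 0.410 TPM (n = 6). MDA-MB-231 had 0 counts in all 6 NT libraries and 1 count among the other 12 libraries, in shNRP1#3 replicate 3, and SUM159PT had 0 to 2 counts in each library. The pooled NT level in HS578T was at least 59.9-fold higher than in MDA-MB-231, where the floor was 3 counts over the group, and 21.8 times that in SUM159PT (10.2 to 55.5). The gene uses 2 first exons far apart, exon 1β for ARF and exon 1α for p16. All 380 counts that HS578T libraries had for CDKN2A were assigned to transcripts that begin near exon 1β, 222 to CDKN2A-210, 142 to CDKN2A-204 and 16 to CDKN2A-209. The 9 transcripts that begin nearer to exon 1α had 0 counts. Some of these start downstream of it, such as CDKN2A-211 at 21970467, against 21974857 for CDKN2A-201. CDKN2A-204 has no defined coding sequence and ends before the exons shared with p16. In SUM159PT 12 of 13 counts were assigned to transcripts that begin nearer to exon 1α. At 0 to 2 counts per library this assignment says little about SUM159PT.

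The upstream sequences of the INK4 genes are shown because the levels of these 2 genes set HS578T apart, and both first exons of CDKN2A are given. Each is the 250 bases before a RefSeq start (GRCh38.p14) on the minus strand, 5′ to 3′, with matches to the searched words in capitals. The words were the GC box GGGCGG, the CCAAT box CCAAT, the TATA box TATAAA and the E2F words TTTCGCGC, TTTGGCGC, TTTCCCGC and TTTGCCGC, each on both strands.
CDKN2A before exon 1β (chr9:21995325-21995574): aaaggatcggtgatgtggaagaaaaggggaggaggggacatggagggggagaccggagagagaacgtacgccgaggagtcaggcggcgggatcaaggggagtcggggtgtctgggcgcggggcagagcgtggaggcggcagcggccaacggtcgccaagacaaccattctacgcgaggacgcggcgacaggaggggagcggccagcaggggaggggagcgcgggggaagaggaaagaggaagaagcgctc
CDKN2A before exon 1α (chr9:21974858-21975107): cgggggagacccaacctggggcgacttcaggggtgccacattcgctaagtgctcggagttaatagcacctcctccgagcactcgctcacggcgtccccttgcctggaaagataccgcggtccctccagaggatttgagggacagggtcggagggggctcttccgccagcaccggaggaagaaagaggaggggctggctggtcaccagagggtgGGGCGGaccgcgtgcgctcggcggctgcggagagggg
CDKN2B (chr9:22009306-22009555): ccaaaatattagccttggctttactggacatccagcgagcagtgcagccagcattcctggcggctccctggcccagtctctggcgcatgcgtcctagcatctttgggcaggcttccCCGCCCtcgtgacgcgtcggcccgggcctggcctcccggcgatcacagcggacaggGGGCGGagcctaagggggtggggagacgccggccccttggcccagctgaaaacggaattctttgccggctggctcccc
The window before exon 1β held no searched word, that before exon 1α held 1 GC box, and that of CDKN2B held 2. The start used for exon 1β, at 21995324, is nearest to that of CDKN2A-209, which had 16 counts in HS578T. CDKN2A-210 and CDKN2A-204, with 222 and 142 counts, start downstream of it at 21994411 and 21994873, and the bases before those starts are not shown. GC boxes were in 42.6% of 35116 promoter windows of this length, CCAAT boxes in 32% and E2F words in 2.79%. None of the 9 RefSeq windows of the 6 members with an entry held an E2F word or a TATA box. A match is a string of letters and says nothing of binding.

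Among the neighbours of the INK4 genes, MTAP and CDKN2B-AS1 were also clearly highest in HS578T. MTAP, an enzyme of the methionine salvage pathway, had 120 to 3120 counts in HS578T libraries against 0 to 2 in SUM159PT and 0 to 11.3 in MDA-MB-231. CDKN2B-AS1, a long non-coding RNA on the other strand that overlaps CDKN2B, had 18 to 258 counts in HS578T and 0 to 2 in both other lines. DMRTA1 was near 0 in all 3 lines, with at most 12 counts. ELAVL2, farther along the chromosome, was highest in SUM159PT instead, with 11 to 146 counts in SUM159PT, 1 to 40 in HS578T and 0 to 1 in MDA-MB-231. These levels were not tested, and DNA copy number was not measured here.

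**Figure D2:**
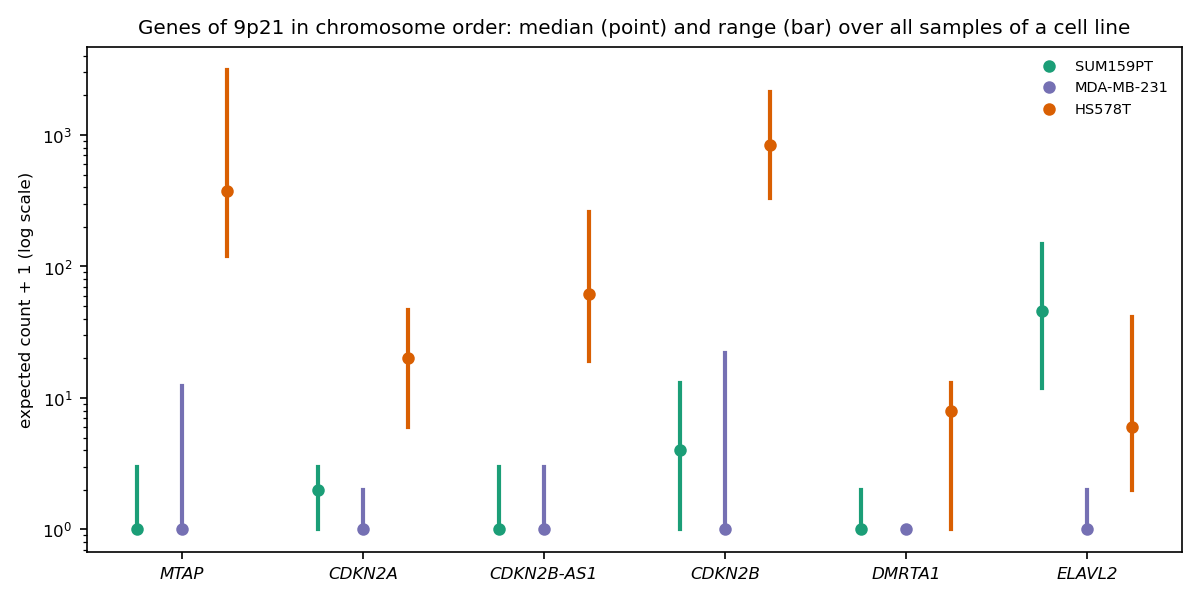
Expected count + 1 on a log scale for CDKN2A, CDKN2B and 4 neighbours on chromosome 9, with the median (point) and the range (bar) over all samples of each cell line. MTAP, CDKN2A, CDKN2B-AS1 and CDKN2B stand above both other lines in HS578T, while ELAVL2 is highest in SUM159PT (median 45 counts).

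Knockdown of NRP1 moved members of both classes. Over 12 contrasts of a knockdown with its own NT control, 104 of 120 pairs of member and contrast could be tested and 22 passed, 17 upward and 5 downward. The siRNA contrasts gave 16 of these calls and the shRNA contrasts 6, each out of 52 tested pairs. Of the rises 9 were in CCND2 and CCND3, and the shRNA calls in inhibitors were 1 upward and 2 downward. Over all genes, too, the siRNA gave a larger share of calls than the shRNA of the same number in every line, as listed below. Falls outnumbered rises over all genes except in SUM159PT siNRP1#5, SUM159PT shNRP1#5 and HS578T siNRP1#5. In SUM159PT 1 of 8 tested members passed with siNRP1#3 against 8.66% of all genes, 2 with siNRP1#5 against 17.9%, none with shNRP1#3 against 1.4% and 1 with shNRP1#5 against 5.94%. In MDA-MB-231 4 of 8 passed with siNRP1#3 against 25.7% of all genes, 3 with siNRP1#5 against 29.4%, 2 with shNRP1#3 against 3.65% and 3 with shNRP1#5 against 20.7%. In HS578T 3 of 10 passed with siNRP1#3 against 4.65% of all genes, 3 with siNRP1#5 against 18.7%, and none with shNRP1#3 against 0.0356% or with shNRP1#5 against 0.946%. With 8 or 10 members these counts are descriptions. For the 3 contrasts without a call in edgeR, 2, 0 and 2 members had an unadjusted p under 0.05, and DESeq2 called CDKN1C in SUM159PT shNRP1#3 (-1.84, adjusted p = 0.0202) and no member in the HS578T shRNA contrasts. CDKN2A and CDKN2B were too low to be tested in SUM159PT and MDA-MB-231. Of the 22 calls, 12 held without any 1 library of that cell line. Samples of a group were repeats with 1 cell line, so that p-values measure the spread between such cultures.

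**Figure D3:**
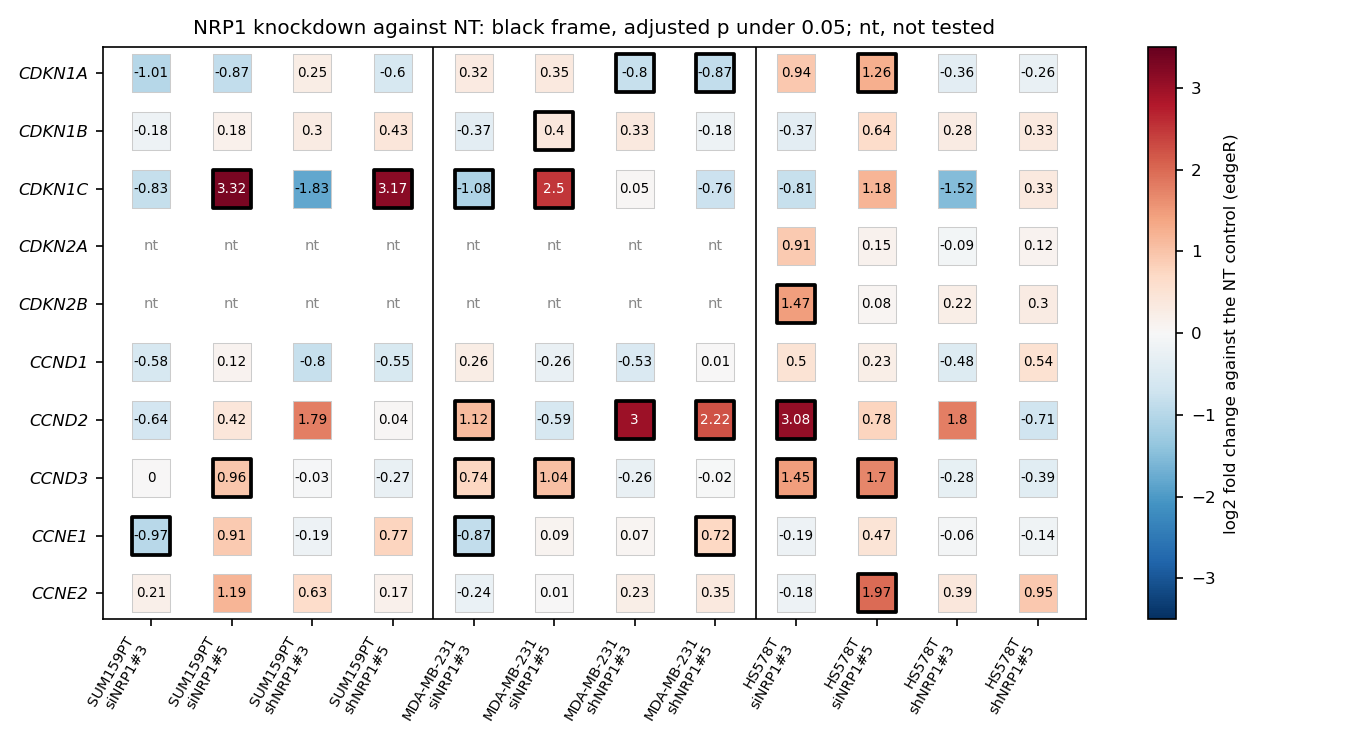
Log2 fold change (edgeR) of each gene in the 12 contrasts of NRP1 knockdown with the NT control of the same cell line and delivery, with black frames where the adjusted p over all genes was under 0.05 and "nt" where the gene was too low to test. CCND3 is framed in 5 contrasts, all siRNA, and CDKN1C has the largest rises (3.32 and 3.17) and also falls.

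CDKN1C, the p57 inhibitor that is imprinted and restrains growth in development, showed the largest rises of any CIP/KIP gene, and they came with sequence 5. In SUM159PT it stood at 0.791, 1.54 and 0.972 CPM in siNT and at 6.96 and 15.0 CPM in siNRP1#5. The groups did not overlap, and the gene rose by 3.32 ± 0.56 log2 (edgeR adjusted p = 0.00145, 2.68 without the higher siNRP1#5 replicate 3). The shRNA of the same sequence gave a rise of like size in that line, from 2.14, 1.75 and 0.840 CPM in shNT to 8.88, 24.7 and 7.97 CPM in shNRP1#5. All 3 knockdown samples were above all controls, and the log2 fold change was 3.17 ± 0.53 (edgeR adjusted p = 0.00178, 2.45 without shNRP1#5 replicate 2). In MDA-MB-231 siNRP1#5 raised CDKN1C from 4.53, 5.92 and 10.5 CPM to 23.5, 48.7 and 44.5 CPM, by 2.5 ± 0.32 log2 (edgeR adjusted p = 1.66e-05).

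The rise was not seen in every setting with sequence 5. In MDA-MB-231 the shRNA samples had 6.99, 3.46 and 4.80 CPM against 6.20, 10.5 and 9.36 CPM in shNT, with a log2 fold change of -0.76 ± 0.31 (edgeR adjusted p = 0.0919). These groups overlapped. In HS578T siNRP1#5 samples had 28.7, 18.7 and 8.39 CPM against 8.02, 10.6 and 5.96 CPM in siNT, and the change of 1.18 ± 0.59 did not pass (edgeR adjusted p = 0.175, 1.54 and 0.121 after subtraction of the other lines). HS578T shRNA samples stayed low in all groups, at 0.0902 to 1.72 CPM. With sequence 3 the only call was a fall. In MDA-MB-231 siNRP1#3 CDKN1C fell by 1.08 ± 0.32 log2 to 3.26, 3.13 and 3.38 CPM (edgeR adjusted p = 0.0205), a call that was lost without siNRP1#3 replicate 1 (adjusted p = 0.0604), siNRP1#3 replicate 2 (0.0635) or siNT replicate 3 (0.133).

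CDKN1A, the p21 inhibitor and a target of p53, moved in opposite directions in different settings. In MDA-MB-231 it fell with both shRNAs, from 130, 120 and 126 CPM in shNT to 59.1, 83.8 and 73.0 CPM in shNRP1#3 and 84.4, 59.0 and 60.7 CPM in shNRP1#5. Neither knockdown group overlapped shNT, and the falls were -0.80 ± 0.16 and -0.87 ± 0.16 log2 (edgeR adjusted p = 0.00634 and 0.000879). Both contrasts share the shNT samples. In the same cells the siRNAs gave 0.32 ± 0.16 and 0.35 ± 0.16 and did not pass (edgeR adjusted p = 0.142 and 0.103).

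In HS578T CDKN1A rose with siNRP1#5, from 62.9, 87.7 and 70.2 CPM in siNT to 224, 132 and 174 CPM. The groups did not overlap, and the rise was 1.26 ± 0.31 log2 (edgeR adjusted p = 0.0103) and 1.37 after subtraction of the other lines (adjusted p = 0.0142). With siNRP1#3 it had 145.5, 105 and 174 CPM, also above all siNT samples, but the change of 0.94 ± 0.31 did not pass (edgeR adjusted p = 0.0905, and 0.99 with 0.127 after subtraction), while it did in DESeq2 (0.97, adjusted p = 0.0429), with the 2 groups fitted alone (0.0496) and with low genes kept in the fit (0.0128). In SUM159PT the siNT samples were themselves far apart, at 206.5, 119 and 251 CPM. The siNRP1#3 samples lay below them at 98.0, 84.3 and 103 CPM, with a log2 fold change of -1.01 ± 0.34 that did not pass in edgeR (adjusted p = 0.0754) and did in DESeq2 (adjusted p = 0.0398).

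**Figure D4:**
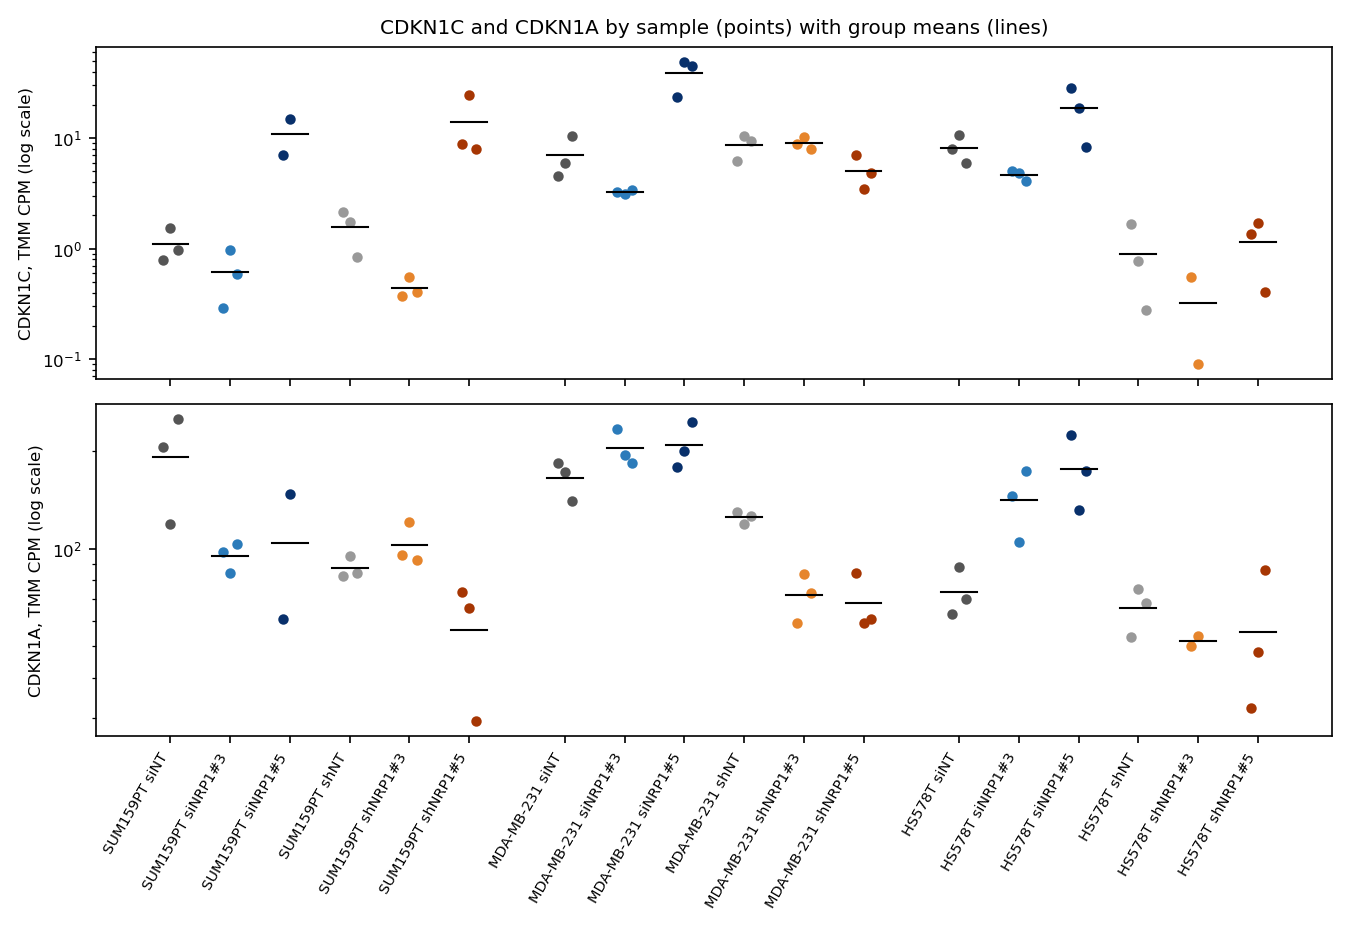
CDKN1C and CDKN1A in TMM-scaled CPM on a log scale for each sample (points) of the 18 groups, with the group mean (black line). CDKN1C stands above its control in both SUM159PT groups of sequence 5 and in MDA-MB-231 siNRP1#5 (23.5 to 48.7 CPM), and CDKN1A lies below shNT in both MDA-MB-231 shRNA groups.

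CDKN1B, the p27 inhibitor, varied least among the 3 CIP/KIP genes. Over all 52 samples it ranged from 6 to 31.25 TPM. It passed in 1 of 12 contrasts, MDA-MB-231 siNRP1#5, with 31, 28.4 and 37.5 CPM against 20.4, 24.6 and 29.4 CPM in siNT. These groups overlapped, and the rise of 0.40 ± 0.13 log2 (edgeR adjusted p = 0.0308) was lost without siNRP1#5 replicate 3 (adjusted p = 0.122), siNT replicate 1 (0.164) or siNT replicate 2 (0.0848). In HS578T siNRP1#5 the 3 samples (46.0, 56.6 and 50.6 CPM) were all above siNT (36.5, 30.3 and 31.6 CPM), and the change of 0.64 ± 0.23 missed the threshold (edgeR adjusted p = 0.0646) but was 0.89 with an adjusted p of 0.0226 after subtraction of the other lines.

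CDKN2B passed in 1 of the 4 HS578T contrasts. It had 30.4, 54.8 and 42.0 CPM in siNRP1#3 against 18.2, 15.9 and 11.5 CPM in siNT, with no overlap. The rise of 1.47 ± 0.41 log2 (edgeR adjusted p = 0.0466) did not pass after subtraction of the other lines (1.55, adjusted p = 0.0573), and in 17 fits that left out 1 library each the adjusted p ran from 0.0254 to 0.147 and was past the threshold in 5. With siNRP1#5 it had 14.52, 22.46 and 11.59 CPM, within the range of siNT apart from replicate 2. CDKN2A stayed at 5 to 46 counts in all HS578T samples and passed in no contrast, with log2 fold changes of -0.09 to 0.91.

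CCND3, the cyclin D that is broadly expressed and prominent in blood and muscle cells, passed in 5 of 6 siRNA contrasts and in none of the shRNA contrasts. In MDA-MB-231 it had 135, 153 and 123.5 CPM in siNT, 246, 223 and 205 CPM in siNRP1#3, and 221, 342 and 268.5 CPM in siNRP1#5. All 6 knockdown samples were above all 3 controls, and the rises were 0.74 ± 0.14 and 1.04 ± 0.14 log2 (edgeR adjusted p = 0.000635 and 1.44e-05). The same cells with shRNA had 134 to 147.5 CPM in shNRP1#3 and 158 to 173 CPM in shNRP1#5 against 157 to 181 CPM in shNT, and neither passed.

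In HS578T CCND3 had 25.2, 38.7 and 43.6 CPM in siNT, 87.1, 70.2 and 136 CPM in siNRP1#3 and 123, 110 and 117 CPM in siNRP1#5. Again no knockdown sample overlapped the controls. The rises were 1.45 ± 0.33 log2 with siNRP1#3 (edgeR adjusted p = 0.0174, 1.52 and 0.0234 after subtraction) and 1.70 ± 0.33 with siNRP1#5 (adjusted p = 0.00242, 1.71 and 0.0043 after subtraction). The siNRP1#3 call was lost without siNRP1#3 replicate 3 (adjusted p = 0.0684), siNT replicate 1 (0.0801) or siNT replicate 2 (0.0604). The HS578T siNT samples were also below shNT (70.6, 131 and 126 CPM), and both siRNA contrasts share them. In SUM159PT siNRP1#5 had 278 and 505 CPM against 188, 229 and 188 CPM in siNT, a rise of 0.96 ± 0.21 log2 (edgeR adjusted p = 0.00603) that was 0.48 with an adjusted p of 0.112 without siNRP1#5 replicate 3. SUM159PT siNRP1#3 had 204, 211 and 187 CPM, and its change was 0 ± 0.19 log2.

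The CCND3 transcript with the largest isoform share in the NT controls of each line was a short one, CCND3-203 (chr6:41934952-41941808, minus strand), with 54.8% ± 22.5 of the gene's isoform share in SUM159PT, 80.9% ± 4.14 in HS578T and 73.5% ± 1.62 in MDA-MB-231 (n = 6 each). In SUM159PT its share was uneven, with a lowest group mean of 36.3% and a lowest sample of 24.6%. Its start lies far inside the gene, which spans chr6:41934934-42050357. The 250 bases before that start are shown because this transcript had the largest share, with GC and CCAAT boxes in capitals on the minus strand, 5′ to 3′.
CCND3 before CCND3-203 (chr6:41941809-41942058): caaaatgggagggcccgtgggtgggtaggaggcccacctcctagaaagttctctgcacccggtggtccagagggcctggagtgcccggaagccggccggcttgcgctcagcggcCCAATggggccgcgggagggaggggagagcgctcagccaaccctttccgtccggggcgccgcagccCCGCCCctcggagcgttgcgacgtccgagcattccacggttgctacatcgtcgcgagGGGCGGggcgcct
This window held 2 GC boxes and 1 CCAAT box, and the window before the far start of CCND3-211 held 5 GC boxes.

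CCND2, the third cyclin D, was low, with at most 95.9 counts in a library. In MDA-MB-231 shNT it had 7, 8 and 9 counts, against 32.8, 72.0 and 52 counts in shNRP1#3 and 52.95, 26.24 and 39.44 counts in shNRP1#5. In CPM these were 0.114 to 0.133, 0.914 to 1.07 and 0.496 to 0.654, with no overlap, and the rises were 3.00 ± 0.42 and 2.22 ± 0.43 log2 (edgeR adjusted p = 0.000405 and 0.00146). The rise with shNRP1#3 was 3.04 after subtraction of the other lines. The siNT samples of the same cells already stood at 0.719 to 1.07 CPM, and siNRP1#3 raised CCND2 to 1.34, 1.61 and 2.66 CPM (1.12 ± 0.35, edgeR adjusted p = 0.0237). That call was lost without siNRP1#3 replicate 3 (adjusted p = 0.141), siNT replicate 1 (0.0699) or siNT replicate 2 (0.0951).

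In HS578T CCND2 had 1 to 4 counts in siNT and 27.2, 22.1 and 6.21 counts in siNRP1#3, a change of 3.08 ± 0.83 log2 (edgeR adjusted p = 0.0443) that was 3.26 with an adjusted p of 0.0727 after subtraction. Without siNT replicate 1 it was 3.81 (adjusted p = 0.063), and over 15 fits that left out 1 library each the call was kept in 6. Of the 395 CCND2 counts in SUM159PT and the 104 in HS578T none were assigned to protein-coding transcripts, and in MDA-MB-231 172 of 756 were (22.7%). The main transcript was CCND2-205 (chr12:4275549-4305350), for which the annotation defines no coding sequence.

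**Figure D5:**
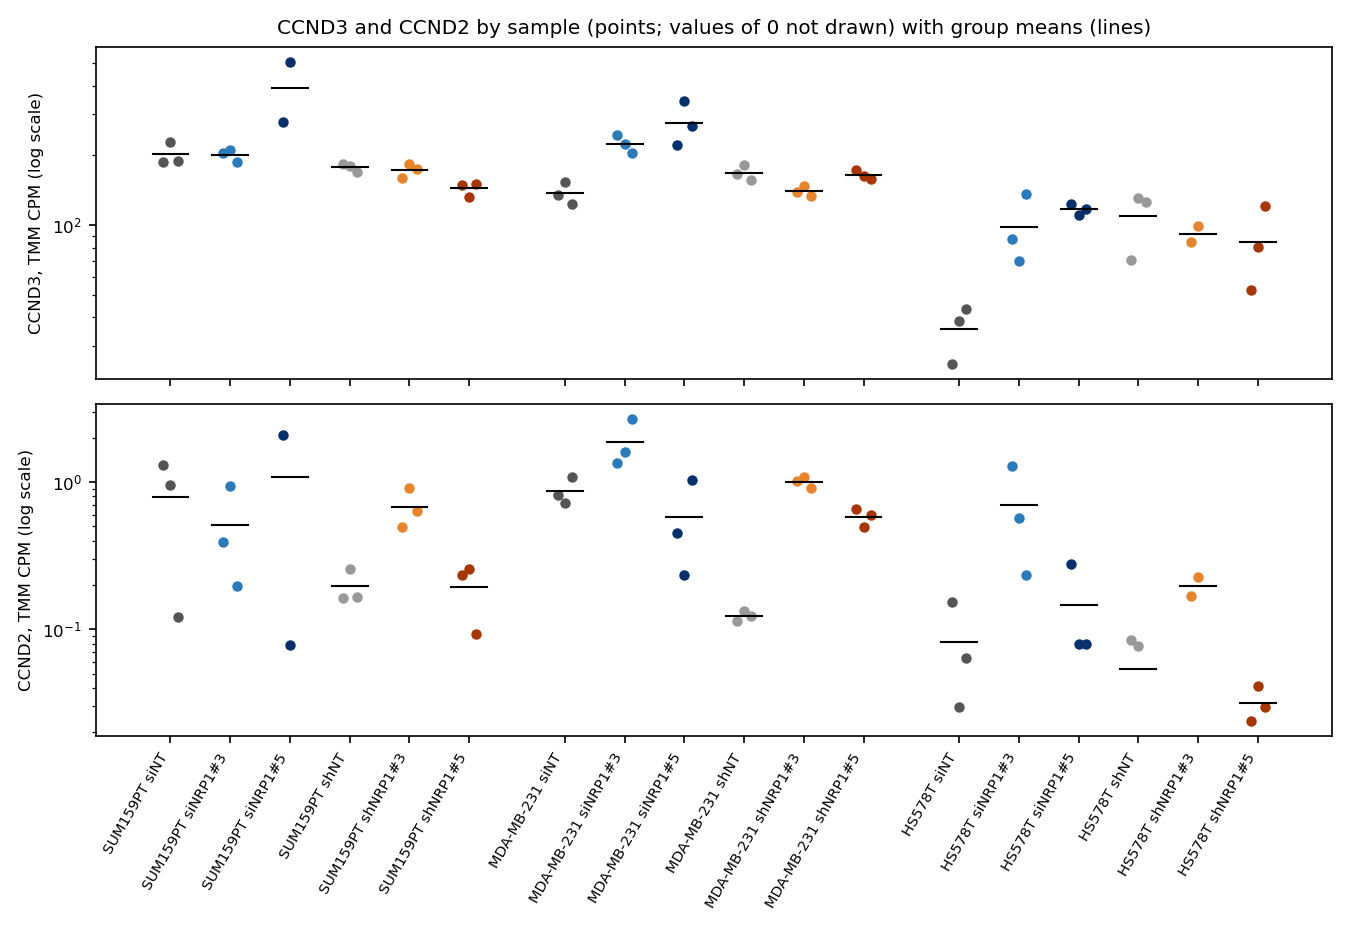
CCND3 and CCND2 in TMM-scaled CPM on a log scale for each sample (points; values of 0 are not drawn) of the 18 groups, with the group mean (black line). CCND3 lies above siNT in both siRNA groups of MDA-MB-231 and HS578T, and CCND2 lies above shNT in both shRNA groups of MDA-MB-231, at levels near 1 CPM or lower.

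CCND1 was the most abundant member and passed in none of the 12 contrasts. Its log2 fold changes lay between -0.80 and 0.54. An unadjusted p under 0.05 was reached in SUM159PT shNRP1#3 (-0.80 ± 0.37), MDA-MB-231 shNRP1#3 (-0.53 ± 0.15), HS578T siNRP1#3 (0.50 ± 0.24) and HS578T shNRP1#5 (0.54 ± 0.24). In MDA-MB-231 shNRP1#3 it had 343.5, 392 and 394 CPM, below all shNT samples (525, 614 and 498 CPM), with an edgeR adjusted p of 0.0619. It passed in DESeq2 (adjusted p = 0.0121) and in edgeR with RLE factors (0.0442), with low genes kept in the fit (0.00148), with a replicate block (0.0416) and with the 2 groups fitted alone (0.00338). The SUM159PT shNT samples were far apart, at 434, 282 and 605 CPM. In HS578T siNRP1#5 the sign turned after subtraction of the other lines, from 0.23 to -0.57, and passed in neither fit.

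CCNE1, the cyclin E that drives CDK2 at the entry to S phase, fell with siNRP1#3 in SUM159PT and MDA-MB-231. In MDA-MB-231 it went from 10.1, 12.3 and 7.20 CPM in siNT to 5.83, 5.39 and 4.63 CPM, with no overlap, by -0.87 ± 0.23 log2 (edgeR adjusted p = 0.0105, 0.0632 without siNT replicate 2). In SUM159PT it went from 8.92, 21.1 and 13.7 CPM to 6.95, 5.96 and 9.36 CPM. These groups overlapped, and the change of -0.97 ± 0.29 (edgeR adjusted p = 0.0486) held in 3 of the 17 fits that left out 1 library each. With sequence 5 CCNE1 passed in 1 of 6 settings. In MDA-MB-231 shNRP1#5 it had 18.2, 18.7 and 17.7 CPM against 13.3, 10.2 and 9.75 CPM in shNT, a rise of 0.72 ± 0.23 log2 (edgeR adjusted p = 0.03) that was past the threshold in 13 of 18 such fits. In SUM159PT siNRP1#5 it had 23.0 and 31.7 CPM, above all siNT samples, but the change of 0.91 ± 0.32 did not pass (edgeR adjusted p = 0.0567). Nor did those in SUM159PT shNRP1#5 (0.77 ± 0.29, adjusted p = 0.145) and HS578T siNRP1#5 (0.47 ± 0.21, adjusted p = 0.136, and 0.69 with 0.0519 after subtraction).

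CCNE2, the second cyclin E gene, passed in HS578T siNRP1#5, where 3.63, 3.07 and 1.55 CPM in siNT became 4.67, 12.1 and 15.6 CPM. The groups did not overlap, and the rise was 1.97 ± 0.42 log2 (edgeR adjusted p = 0.00477, 2.11 and 0.0155 after subtraction). MDA-MB-231 NT libraries, whose markers these siNRP1#5 libraries held, had 10.95 ± 3.04 CPM of CCNE2. HS578T shNRP1#5 samples (12.3, 15.8 and 21.9 CPM) were all above shNT (8.05, 7.92 and 9.52 CPM) without passing (0.95 ± 0.40, edgeR adjusted p = 0.223).

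The NT controls of the siRNA and shRNA arms differed in several members. In HS578T 4 of 10 members differed between shNT and siNT, against 17.9% of all genes, in MDA-MB-231 1 of 8 against 20.6%, and in SUM159PT 1 of 8 against 14.4%. In HS578T shNT CDKN1C was lower by 3.15 ± 0.65 log2 (1.66, 0.765 and 0.278 CPM, edgeR adjusted p = 0.00445, -3.96 without shNT replicate 1) and CCND3 was higher by 1.64 ± 0.33 (adjusted p = 0.00367). CCNE2 was higher there by 1.65 ± 0.42 (edgeR adjusted p = 0.0134, 0.0501 without shNT replicate 3). CDKN1B was lower there by 0.86 ± 0.23 (edgeR adjusted p = 0.0184, lost without shNT replicate 2 or siNT replicate 1 with 0.0767 and 0.0672). In MDA-MB-231 CCND2 was lower in shNT by 2.81 ± 0.43 log2 (edgeR adjusted p = 0.000155). In SUM159PT CDKN1A was lower in shNT by 1.16 ± 0.34 (edgeR adjusted p = 0.0332), a call that 5 of 6 fits without 1 NT library lost.

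Sequence 5 was set against sequence 3 directly, and CDKN1C differed in 4 of these 6 contrasts, each time higher with sequence 5. The log2 differences were 4.14 ± 0.58 for the siRNAs and 4.99 ± 0.59 for the shRNAs in SUM159PT, 3.58 ± 0.34 for the siRNAs in MDA-MB-231 and 1.99 ± 0.61 for the siRNAs in HS578T (edgeR adjusted p = 0.000153, 7.23e-05, 3.33e-07 and 0.0322). The SUM159PT values were 3.51 without siNRP1#5 replicate 3 and 4.28 without shNRP1#5 replicate 2, and the HS578T call was lost in 5 of 11 fits without 1 library (2.37, adjusted p = 0.0246 after subtraction). The remaining contrasts did not pass, and that between the MDA-MB-231 shRNAs had the other sign, with 5.08 against 8.99 CPM and -0.81 ± 0.31 (edgeR adjusted p = 0.0915, 0.000438 with low genes kept). That between the HS578T shRNAs was 1.85 ± 0.79 (edgeR adjusted p = 0.396, 0.0174 with low genes kept). In all, 3 of 8 members differed between the siRNAs in SUM159PT against 29.7% of all genes, 5 of 8 in MDA-MB-231 against 39%, and 6 of 10 in HS578T against 18.1%. Between the shRNAs 2 of 8 differed in SUM159PT against 8.71%, 2 of 8 in MDA-MB-231 against 14.2%, and none in HS578T against 0.544%, where 3 had an unadjusted p under 0.05 and DESeq2 called CCND1 (0.99, adjusted p = 0.026).

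CCNE1 was higher with the siRNA of sequence 5 in all 3 lines, by 1.88 ± 0.32 log2 in SUM159PT, 0.66 ± 0.21 in HS578T and 0.95 ± 0.23 in MDA-MB-231 (edgeR adjusted p = 0.000592, 0.0413 and 0.00319). The HS578T call was lost in 6 of 11 fits without 1 library and was 0.86 (adjusted p = 0.0192) after subtraction. Between the shRNAs it was higher with sequence 5 in SUM159PT by 0.96 ± 0.29 (edgeR adjusted p = 0.0495), lost in 9 such fits. CDKN1B was higher with the siRNA of sequence 5 by 0.77 ± 0.14 in MDA-MB-231 and 1.01 ± 0.23 in HS578T (edgeR adjusted p = 0.000172 and 0.00833, the latter 0.0548 without siNRP1#3 replicate 1 and 0.00368 after subtraction). It was lower with the shRNA of sequence 5 by 0.52 ± 0.13 in MDA-MB-231 (edgeR adjusted p = 0.0155, 0.0661 without shNRP1#3 replicate 1 and 0.0833 without shNRP1#5 replicate 2). CCNE2 was higher with siNRP1#5 than with siNRP1#3 in HS578T by 2.15 ± 0.43 (edgeR adjusted p = 0.00364, and 2.46 with 0.00692 after subtraction). CCND1, which passed in no contrast with NT, differed between sequences in MDA-MB-231, by -0.52 ± 0.15 for the siRNAs and 0.54 ± 0.15 for the shRNAs (edgeR adjusted p = 0.0113 and 0.0244). The first was lost without siNRP1#5 replicate 3 (adjusted p = 0.0566) and the second in 5 of 12 fits without 1 library.

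The remaining differences between the siRNAs were in CCND3, CCND2 and CDKN2B. CCND3 was higher with siNRP1#5 in SUM159PT by 0.96 ± 0.21 log2 (edgeR adjusted p = 0.00307, 0.0847 without siNRP1#5 replicate 3). CCND2 was lower with siNRP1#5 by 1.71 ± 0.37 in MDA-MB-231 (edgeR adjusted p = 0.00104, -2.41 without siNRP1#5 replicate 3) and by 2.30 ± 0.78 in HS578T (adjusted p = 0.0487, lost in 6 of 9 fits without 1 library, -3.09 without siNRP1#5 replicate 1 and -5.33 after subtraction of the other lines). CDKN2B was lower with siNRP1#5 in HS578T by 1.39 ± 0.40 (edgeR adjusted p = 0.0259), a call lost without siNRP1#3 replicate 2 (adjusted p = 0.0759), siNRP1#5 replicate 1 (0.0747) or siNRP1#5 replicate 3 (0.103) and after subtraction of the other lines (-1.04, adjusted p = 0.102). CCND1 in HS578T, at -0.27 ± 0.24, passed only after that subtraction (-1.05, adjusted p = 0.0134).

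The siRNA and shRNA of sequence 5 were compared through the difference of their changes against NT, which draws on 4 groups. In MDA-MB-231 5 of 8 members differed, against 23.7% of all genes, and in SUM159PT 1 of 8 against 2.51% and in HS578T 1 of 10 against 0.854%. CCND3 differed in all 3 lines with the larger change under siRNA, by 1.23 ± 0.28 log2 in SUM159PT, 2.09 ± 0.46 in HS578T and 1.06 ± 0.19 in MDA-MB-231 (edgeR adjusted p = 0.0335, 0.0393 and 0.000564). The call in MDA-MB-231 held without any 1 library, while that in SUM159PT was lost in 8 of 11 fits without 1 library and that in HS578T in 9 of 12 and after subtraction of the other lines (2.10, adjusted p = 0.0515). CDKN1C differed in MDA-MB-231 by 3.26 ± 0.44 (edgeR adjusted p = 5.67e-05) and CDKN1A by 1.22 ± 0.22 (adjusted p = 0.000578). CCND2 differed there the other way, by -2.81 ± 0.57 (edgeR adjusted p = 0.00145, -3.52 without siNRP1#5 replicate 3), and CDKN1B by 0.58 ± 0.19 (adjusted p = 0.0316, lost in 7 of 12 fits without 1 library). In SUM159PT CDKN1C had a difference of 0.15 ± 0.73, which leaves room for sizeable differences in both directions.

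Whether a change against NT differed among the 3 cell lines was tested in the joint fit for each siRNA and shRNA. With siNRP1#3 2 of 10 members differed against 3.42% of all genes, with siNRP1#5 1 of 10 against 18.2%, with shNRP1#5 1 of 10 against 3.81%, and with shNRP1#3 none against 0.747%, where 2 had an unadjusted p under 0.05 in edgeR and DESeq2 called CDKN2B (adjusted p = 0.00403). In MDA-MB-231 shNRP1#3 CDKN2B had 0, 0 and 21 counts, against 0 in every shNT library. The 21 counts were in replicate 3, which held HS578T markers at 2.05%, and the part of that RNA in the call was not tested. CDKN1A differed with both siRNAs, with its lowest log2 fold changes in SUM159PT (-1.01 and -0.87) and its highest in HS578T (0.94 and 1.26), and adjusted p of 0.0107 and 0.00243. CDKN1C differed with shNRP1#5, between 3.17 in SUM159PT and -0.76 in MDA-MB-231 (edgeR adjusted p = 0.0024). CCND3 differed with siNRP1#3, between 0 in SUM159PT and 1.45 in HS578T (edgeR adjusted p = 0.0191). That last call was lost without HS578T siNRP1#3 replicate 3 (adjusted p = 0.0844), HS578T siNT replicate 1 (0.0697) or SUM159PT siNT replicate 2 (0.0508).

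The 65 other genes of the pathway that were counted fell into 3 lists. The first held 25 partners and regulators of the G1 cyclins, and between 0 and 12 of them passed per contrast. The most were in MDA-MB-231 siNRP1#5, where 3 rose and 9 fell (48% of the list against 29.4% of all genes, median log2 fold change -0.24 against 0.01). CDK6, the kinase partner of the D cyclins, passed in 5 contrasts. It fell with siNRP1#3 in SUM159PT (-2.34 ± 0.35) and MDA-MB-231 (-2.48 ± 0.27) and rose with sequence 5 in SUM159PT shNRP1#5 (1.48 ± 0.34), HS578T siNRP1#5 (1.42 ± 0.32) and HS578T shNRP1#5 (1.57 ± 0.32), with edgeR adjusted p of 4.36e-06 to 0.0327. The HS578T siNRP1#5 libraries held MDA-MB-231 markers. MDA-MB-231 NT controls had a mean of 75.4 CPM of CDK6, against 25.5 in HS578T NT controls. The part of that RNA in the HS578T siNRP1#5 rise was not tested. Single genes of the 3 lists are given before subtraction of the other lines only. FOXO3, a factor that activates CDKN1B, fell in all 4 siRNA contrasts of SUM159PT and MDA-MB-231 (-0.79 to -1.86). CDKN2C, the INK4 gene for p18, fell in 3 MDA-MB-231 contrasts (-0.50 to -0.93) and in HS578T siNRP1#3 (-1.68 ± 0.29). CKS1B, a cofactor in the breakdown of p27, rose in 4 contrasts, all with sequence 5 (0.28 to 1.33).

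The second list held 20 E2F target and S-phase genes. Counts are given for siRNA contrasts in SUM159PT and HS578T. Those of MDA-MB-231, of HS578T siNRP1#3 against siNT and of the shRNAs are not given. With siNRP1#3 6 fell and none rose in SUM159PT (30% against 8.66% of all genes, median -0.70 against -0.01), and with siNRP1#5 8 rose and 1 fell (45% against 17.9%, median 0.94 against 0.01). In HS578T siNRP1#5 8 rose and 1 fell as well (45% against 18.7%, median 0.85 against 0.03), and 5 rose and 1 fell after subtraction of the other lines (median 0.80). These are the libraries that held MDA-MB-231 markers at 13.3% to 24.8%. With siNRP1#5 set directly against siNRP1#3, 13 were higher and none lower in SUM159PT (65% against 29.7%) and 16 were higher and none lower in HS578T (80% against 18.1%, also 16 after subtraction). The gene that fell in both was MCM7, a subunit of the replicative helicase and also the host of a microRNA cluster, which fell in all 5 contrasts it passed, by up to -2.03 ± 0.12 in MDA-MB-231 siNRP1#5 (edgeR adjusted p = 5.32e-10). CDT1, a licensing factor, fell with siNRP1#3 in SUM159PT and HS578T (-1.03 ± 0.27 and -1.20 ± 0.30) and rose with siNRP1#5 in both (1.20 ± 0.29 and 0.89 ± 0.30). UHRF1 and MYBL2, both active in S phase, fell with siNRP1#3 (-1.96 ± 0.38 and -1.44 ± 0.41) and rose with siNRP1#5 (1.19 ± 0.40 and 1.40 ± 0.44) in SUM159PT. CCNE1 had the same signs there (-0.97 and 0.91), with the second not past the threshold. Over all 12 knockdown contrasts calls in the list went both ways. MCM7 had 0 rises and 5 falls, MYBL2 and CDT1 had 2 of each, and UHRF1 had 1 rise and 2 falls.

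The third list held 20 p53 target genes, of which 19 were tested. Between 0 and 7 passed per contrast, in both directions in 8 of the 12 contrasts. The share of all genes that passed ran from 0.0356% in HS578T shNRP1#3 to 29.4% in MDA-MB-231 siNRP1#5. The counts of this list are not set against it contrast by contrast, and they are descriptions. MDM2, which encodes the ligase that degrades p53, passed in 7 contrasts. It fell in the 4 siRNA contrasts of SUM159PT and MDA-MB-231 (-1.03 to -1.80) and rose in SUM159PT with both shRNAs (0.93 ± 0.22 and 0.94 ± 0.22) and in MDA-MB-231 shNRP1#5 (0.74 ± 0.18), where CDKN1A fell. SESN2, a stress-induced regulator of TOR signalling, rose in the 4 siRNA contrasts of MDA-MB-231 and HS578T, by 0.74 to 2.24. BTG2, an antiproliferative gene, fell with siNRP1#3 in SUM159PT (-1.75 ± 0.47) and MDA-MB-231 (-0.64 ± 0.21) and rose in SUM159PT shNRP1#5 (1.90 ± 0.47) and MDA-MB-231 siNRP1#5 (0.76 ± 0.20). FDXR, a mitochondrial reductase, fell in 3 SUM159PT contrasts and rose in MDA-MB-231 siNRP1#3 (0.57 ± 0.16).

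The genes whose pattern was most like that of a member were found by Pearson's r of log2 CPM across all 52 samples after the mean of each cell line was removed, as a description. CDKN1C was most like NOTUM (r = 0.876), RASL10B (0.868) and NES (0.855). CCNE2 was most like FAM111B (r = 0.87), MMS22L (0.866) and ZGRF1 (0.866). CDKN1A was most like TNFRSF10B (r = 0.818), CCNE1 most like RNF216P1 (0.854), CDKN1B most like LINC02977 (0.821) and CCND3 most like PPCDC (0.729). Among the members themselves CDKN1B and CDKN1C had r = 0.572 and CDKN1A and CCND3 had r = 0.443. The points share groups and libraries.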

How the data were processed

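RNA from 52 samples was sequenced as stranded, polyA-enriched libraries. Per the submitters' notes and the study's methods, reads were trimmed with Trim Galore 0.6.5, checked with FastQC 0.11.9, aligned to GRCh38 with STAR 2.7.2b and counted by strand with RSEM 1.3.3. The authors deposited expected counts and TPM per gene and per transcript. The transcript tables also hold, as deposited, the percent of a gene's isoforms.

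Expected counts were rounded and fitted with edgeR 4.0.16 (filterByExpr, TMM, quasi-likelihood F-test, robust), by cell line with 6 group means, and over all samples with 18 group means for comparisons between lines. P-values were adjusted by Benjamini-Hochberg over all genes tested (20067 in SUM159PT, 18800 in MDA-MB-231, 19661 in HS578T, 23416 jointly), at 0.05. The members and lists were chosen with earlier results of these data known, and of each list the up to 4 genes that passed in most knockdown contrasts are named. Totals of 25310443 to 72003442 set the precision, and intervals and floors cover counting error alone. RNA of another line was read from genes under 0.5 CPM in a line's NT controls and over 20 CPM in the other's. The fit was tested on simulated data. Positions are from GENCODE 44, an older release than the authors used for counting.

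Alternatives were DESeq2, RLE factors, no count filter, a replicate block, subtraction of other lines, the 2 groups alone, limma on log2(TPM + 0.1), and leaving out each library.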

Additional observations from a re-analysis of the deposited data

Results flagged for a closer look

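The change against NT differed among the 3 cell lines, by the joint edgeR test, for 3 members. The range of log2 fold changes over the lines was 1.96 for CDKN1A with siNRP1#3 (adjusted p = 0.0107), 2.14 for CDKN1A with siNRP1#5 (adjusted p = 0.00243), 1.45 for CCND3 with siNRP1#3 (adjusted p = 0.0191) and 3.91 for CDKN1C with shNRP1#5 (adjusted p = 0.0024).

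The change with the siRNA of sequence 5 differed from that with the shRNA of the same sequence, by the edgeR test of the difference, for 5 members. In MDA-MB-231 the log2 difference was 1.22 for CDKN1A, 0.58 for CDKN1B, 3.26 for CDKN1C, -2.81 for CCND2 and 1.06 for CCND3. For CCND3 it was 1.23 in SUM159PT and 2.09 in HS578T, calls that were lost in 9 of 17 and in 11 of 18 alternatives, the latter including the subtraction of other lines (adjusted p = 0.0515). NRP1 was at 3.39% of NT with the siRNA and 48.3% with the shRNA in MDA-MB-231, 5.03% and 20.3% in SUM159PT, and 15.8% and 23.5% in HS578T. The part of the depth of knockdown in these differences was not tested.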

How the results depend on the processing

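None of the called member results that have a direction changed it under any alternative that was run. The 4 called differences among cell lines are ranges, which have no direction. The count of member calls in SUM159PT, 4, was 7 with DESeq2, 9 without a filter on low counts and 2 with the 2 groups fitted alone, and the count of changes that differed between lines, 4, was 13 without the filter. Leaving out 1 library gave 3 to 5 knockdown calls in SUM159PT, 9 to 15 in MDA-MB-231 (main 12) and 3 to 7 in HS578T (main 6, with 3 without siNT replicate 1 and without siNT replicate 2). It gave 5 to 8 calls for shNT against siNT (main 6), 14 to 20 for sequence 5 against 3 (main 18), 6 to 8 for siRNA against shRNA (main 7), 3 to 6 for differences between lines in the change (main 4) and 22 to 23 for the lines in NT (main 23). Of 80 called results, 80 were kept with RLE factors, 79 with DESeq2, 76 after subtraction of other lines and 75 without the filter, and 38 of 53 on the TPM scale. Counts over all genes moved by over 1.5 times in 12 of 31 comparisons without the filter, 12 with DESeq2, 7 after subtraction and 5 with a replicate block, in 8 of 12 with the 2 groups fitted alone (SUM159PT siNRP1#5 went from 3590 to 59 calls) and in 6 of 24 on the TPM scale. The share of upward calls moved by over 10 points in 16 of 24 comparisons on the TPM scale, 3 without the filter, 3 after subtraction and 1 with DESeq2. Samples of like replicate number were compared by the correlation of deviations (-0.207 to 0.61). Every pair was over 0.1 in 4 of 12 contrasts, all with 3 samples per group. So were the pairs of the contrasts with a group of 2, SUM159PT siNRP1#5 (0.132 and 0.37) and HS578T shNRP1#3 (0.484 and 0.21). The labels name no shared batch. A replicate block gave 4, 14 and 6 knockdown calls in SUM159PT, MDA-MB-231 and HS578T, and of the 80 results it lost CCNE1 between the SUM159PT shRNAs. At 3 counts, worth up to 0.142 CPM, depth limits CDKN2A, CDKN2B and CCND2.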
